A study of Mus musculus with 2 samples.

Results

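The enzymes that make reactive oxygen or nitrogen on purpose, rather than as a leak from respiration, were examined through 10 genes chosen by name from 23358 genes listed for mouse ileum (the final stretch of the small intestine, next to the colon). They are Duox2 and its maturation factor Duoxa2, the NADPH oxidase genes Nox1, Noxo1, Nox4, Cybb and Cyba, the inducible nitric oxide synthase Nos2, the xanthine oxidoreductase Xdh and the aldehyde oxidase Aox1. All 10 were found in the table. RNA came from BALB/c mice, 21 days old, which all received 0.1 ml of saline by intraperitoneal injection and 0.2 ml of castor oil by mouth, an oil that causes diarrhea within hours. After 0.5 h, group D received 0.3 ml of saline (below, with saline) and group E 0.3 ml of ellagic acid (EA, a plant polyphenol) at 10 mg/ml (below, with EA), once a day for 3 days. Mice without castor oil were not sequenced, so the comparison is that of EA with saline among mice that all had castor oil. The study's methods give 10 mice and 2 sequenced libraries per group, and each gene has a single FPKM value for a group (fragments per kilobase of transcript, scaled to all mapped fragments). There is therefore no SD, no test and no replicate check behind any difference given here, and a change is described as log2(group E/group D) of the FPKM values.

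NADPH oxidases and DUOX enzymes pass electrons from NADPH across a membrane to oxygen. The product is superoxide or, for DUOX enzymes and Nox4, mainly hydrogen peroxide. In the gut epithelium Duox2 and Nox1 release these oxidants towards the lumen and its microbes, while Cybb is the catalytic subunit of the oxidase of phagocytes. Nos2 makes nitric oxide from arginine and is controlled mainly at the level of its transcript by cytokines and microbial products. Xdh ends purine breakdown by turning xanthine into uric acid, and its oxidase form passes electrons to oxygen. Aox1 is a related molybdenum enzyme that oxidises aldehydes and nitrogen-containing rings and also yields hydrogen peroxide.

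Defining markers of the labelled tissue were present. Fabp6 and Slc10a2, the bile acid carrier and the bile acid transporter of the ileum, were listed at 5698 and 234 FPKM in group D and at 3846 and 142 FPKM in group E, and the colon genes Car1, Aqp8, Hoxd13 and Hoxb13 were listed at 0 in both, which in this table need not mean absence. The 12694 genes that were above 0 in each group and averaged 1 FPKM or more, those counted below, had a median log2 change of 0.01. Scaling each group to the same FPKM sum shifts every log2 change by -0.36, so that changes above 0 and smaller than this shift turn below 0 under it. Some values can be failed estimates, since the housekeeping gene Gapdh of glycolysis stood at 0.120 FPKM with saline and 2.98 FPKM with EA. Markers of fat cells differed greatly between the groups, and not in a single direction. Adipoq was at 0.120 and 63.4 FPKM in groups D and E, Retn at 0 and 53.4 FPKM, and Fabp4 at 536 and 25.6 FPKM. The group D values of Adipoq and Gapdh were the same, 0.120016 FPKM, so that of Adipoq can be a failed estimate too. Of 8 B cell markers, 7 were past 2-fold, 3 of them listed as higher and 4 as lower, beside 2.9% of all genes counted. The direction of a single row was not checked against a second measurement here.

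Levels of the 10 genes spanned over 2 orders of magnitude, and their order was nearly the same in both groups. Xdh had the highest level, at 135 FPKM with saline and 109 FPKM with EA, and ranked 476 and 656 among all genes listed. Duox2, Nos2 and Cyba lay between 34.4 and 61.1 FPKM in both groups. Noxo1, Duoxa2 and Cybb followed, between 8.60 and 17.3 FPKM, then Nox1 at 2.98 and 2.49 FPKM. Aox1 and Nox4 had the lowest levels. The order differed only in that Nos2 ranked above Duox2 and Cyba in group D and below them in group E. Whether neighbours in this order differ beyond their spread cannot be said from 1 value per group.

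**Figure D1:**
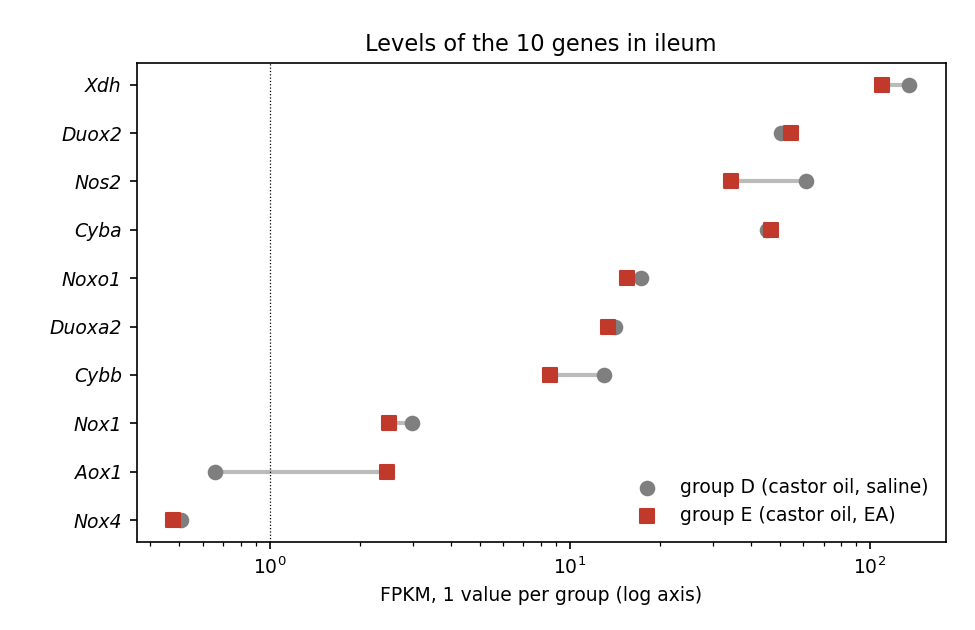
FPKM of the 10 genes (log axis) in group D (grey circles) and group E (red squares), 1 value per group, with a grey line joining the pair and a dotted line at 1 FPKM. The pairs of Nos2 (61.1 and 34.4 FPKM), Cybb (12.9 and 8.60 FPKM) and Aox1 (0.655 and 2.46 FPKM) are visibly apart, and the other 7 nearly meet.

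Of the 10 genes, 1 was higher in group E by over 2-fold, the aldehyde oxidase Aox1, as were 1.59% of the 12694 genes counted. None was lower by over 2-fold, as were 1.31% of all genes counted. Nos2 and Cybb lay between 1.3-fold and 2-fold, both lower in group E, and the other 7 were within 1.3-fold of equal, as were 76.6% of the 12694 genes. The median log2 change was -0.13 over all 10 genes, of which 3 lay above 0 and 7 below. It was -0.16 over the 9 genes with a mean of at least 1 FPKM (all but Nox4), beside 0.01 for all genes under that filter. Aox1 passed this filter only through its level in group E, so that filter fixed its call as higher. The summed level of the 10 genes was 340.2 FPKM with saline and 288 FPKM with EA.

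**Figure D2:**
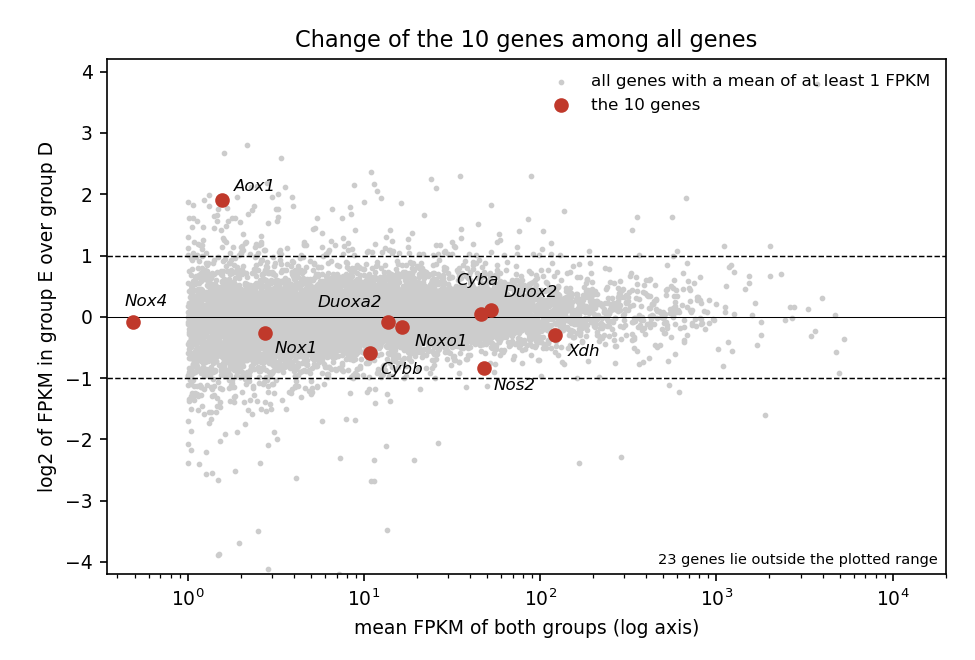
Mean FPKM of both groups (log axis) against log2(group E/group D) of FPKM, for the 10 genes (red) and for all genes with a mean of at least 1 FPKM (grey), with dashed lines at 2-fold. Aox1, at a log2 change of 1.91, lies above the upper line, Nos2 at -0.83 lies near the lower line, and 23 genes are outside the plotted range.

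Stretches upstream of 3 of the genes are shown from RefSeq (build GRCm38.p6), which had a promoter window for 8 of the 10 genes, all but Nos2 and Xdh. Each stretch lies in the 250 bases before the start and outside every exon of GENCODE release M21, and is printed 5′ to 3′ on the strand of the gene. Duoxa2 is shown because its stretch lies in the gap that it shares with Duox2, Cybb as the NADPH oxidase gene furthest from equal, and Aox1 as the gene past 2-fold. Capitals mark matches, on either strand, to the motifs TATAAA (the box at which transcription machinery assembles), CCAAT (bound by NF-Y), AGGTCA (core of nuclear receptor sites), TTCNNNGAA (STAT), GGACTTTCC (NF-κB), TGACNNNGC (antioxidant response element) and GAGGAAGT (ETS factors such as PU.1).
Duoxa2, chr2:122298650-122298899, plus strand: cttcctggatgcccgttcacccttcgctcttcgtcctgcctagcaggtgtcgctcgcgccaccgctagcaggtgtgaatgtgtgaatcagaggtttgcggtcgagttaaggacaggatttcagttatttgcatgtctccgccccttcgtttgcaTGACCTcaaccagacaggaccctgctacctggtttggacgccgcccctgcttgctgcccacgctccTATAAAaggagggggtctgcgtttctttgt
Cybb, chrX:9469325-9469574, minus strand: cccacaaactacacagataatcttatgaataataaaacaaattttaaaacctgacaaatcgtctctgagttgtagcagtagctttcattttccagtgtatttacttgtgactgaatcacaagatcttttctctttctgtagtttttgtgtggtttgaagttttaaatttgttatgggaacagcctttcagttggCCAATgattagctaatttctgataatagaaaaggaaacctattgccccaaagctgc
Aox1, chr1:58029719-58029930, plus strand: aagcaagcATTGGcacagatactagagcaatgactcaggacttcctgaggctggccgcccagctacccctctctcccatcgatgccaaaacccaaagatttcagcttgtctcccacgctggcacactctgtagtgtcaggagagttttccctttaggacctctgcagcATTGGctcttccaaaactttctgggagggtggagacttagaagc
The Duoxa2 stretch holds a TATAAA motif that begins 30 bases before the start, and, on the opposite strand, a nuclear receptor core that begins 96 bases before it. The Cybb stretch holds the NF-Y motif in a single place and the Aox1 stretch in 2, and neither has a match to the other motifs. Of 32851 RefSeq windows of 250 bases, 12.4% hold the TATAAA motif, 14% the nuclear receptor core, 33.8% the NF-Y motif, 7.02% the STAT motif, 10.2% the antioxidant response element, 2.44% the ETS motif and 0.283% the NF-κB motif. Such matches are descriptions of the letters and no evidence of a bound factor.

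Duox2 and Duoxa2, the epithelial source of hydrogen peroxide and the factor that carries it out of the endoplasmic reticulum, had nearly equal values in the groups. Duox2 was listed at 50.3 FPKM with saline and 54.6 FPKM with EA, a log2 change of 0.12 that turned to -0.24 when each group was scaled to the same FPKM sum. Duoxa2 was at 14.2 FPKM with saline and 13.4 FPKM with EA, a log2 change of -0.08. Per unit of length, Duox2 was thus 3.56 times as abundant as its factor in group D and 4.08 times in group E. Both genes are on chromosome 2, Duox2 from 122280437 to 122298165 on the minus strand and Duoxa2 from 122298900 to 122302885 on the plus strand. They are transcribed away from each other, across a gap of 734 bases in these listed coordinates. Only 28 of the 250 bases before the RefSeq start of Duox2 lay outside GENCODE exons, so the gap can be shorter in other annotations. The other pair of the locus, Duox1 and Duoxa1, lies next to them in the same 67.5 kb and was near the lower end of the values. Duox1 was at 0.50 FPKM with saline and 0.546 FPKM with EA, about 100.8 and 100.2 times below Duox2. Duoxa1 was at 0.571 and 0.169 FPKM and had a mean under 1 FPKM, so it was not counted.

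**Figure D3:**
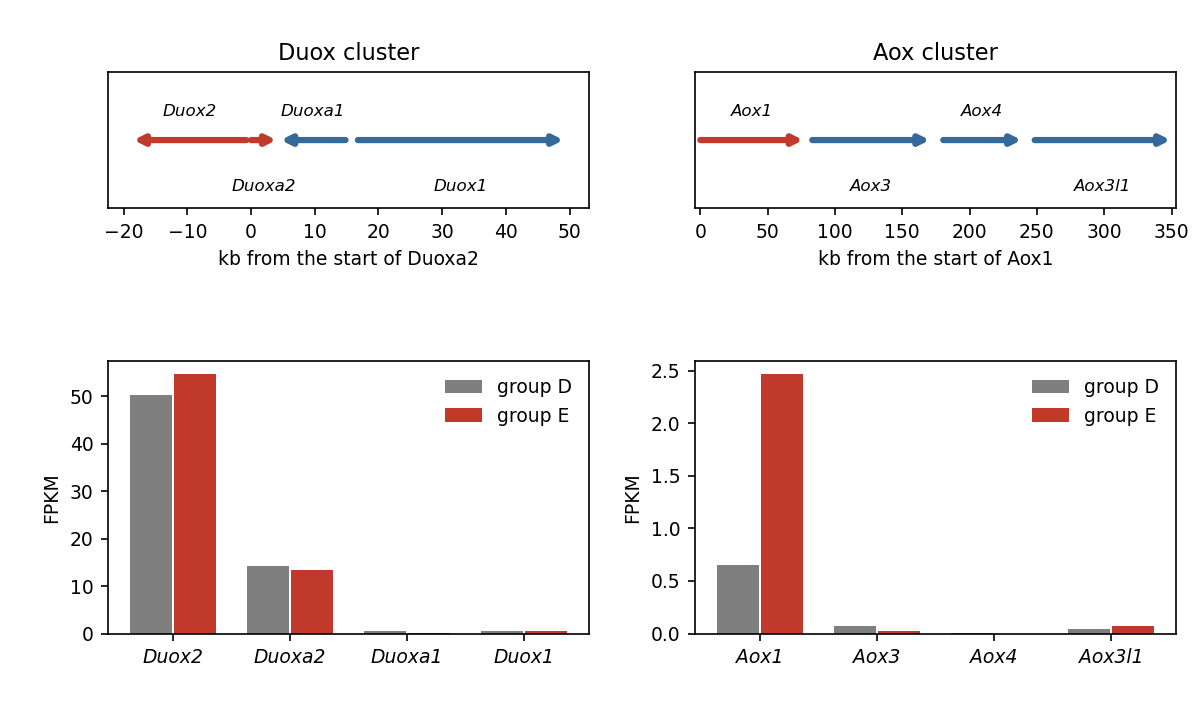
Top, position and direction (arrows) of the genes of the Duox locus and of the Aox locus, in kb from the start of Duoxa2 and of Aox1, with the examined genes in red. Bottom, their FPKM in group D (grey bars) and group E (red bars), 1 value per group: in each locus the values lie almost wholly in Duox2 and Duoxa2, or in Aox1.

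Nox1, the superoxide-generating oxidase of the gut epithelium, was listed at 2.98 FPKM with saline and 2.49 FPKM with EA, and its organiser Noxo1, which holds the complex at the membrane, at 17.3 FPKM and 15.5 FPKM. The log2 changes were -0.26 and -0.16. Noxo1 was 5.81 times as abundant as Nox1 in group D and 6.20 times in group E, and the activator Noxa1 2.43 and 2.56 times, so the regulators of this complex were above its catalytic subunit to much the same degree in both groups. Nox4, an oxidase active without such regulators, was at 0.508 FPKM with saline and 0.477 FPKM with EA, under the minimum of 1 FPKM. Nox3, the oxidase of the inner ear, was at 0 in both groups. Cyba, the membrane partner (p22phox) that stabilises Nox1, Nox4 and Cybb, was at 45.4 FPKM with saline and 46.8 FPKM with EA. Its log2 change of 0.04 turned to -0.32 when each group was scaled to the same FPKM sum. Cyba exceeded Cybb 3.51 times in group D and 5.44 times in group E. Nox1 (from 134087146 to 134111708) and Cybb (from 9435252 to 9469324) are on chromosome X, Noxo1 (from 24696234 to 24700529) on chromosome 17, Nox4 (from 87246795 to 87398606) on chromosome 7 and Cyba (from 122424771 to 122432940) on chromosome 8.

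Cybb (gp91phox, or Nox2), the catalytic subunit of the phagocyte oxidase, was listed at 12.9 FPKM with saline and 8.60 FPKM with EA. This is 1.5-fold lower in group E, a log2 change of -0.59. Of the 12694 genes, 10.1% were at least as far from 0 in either direction and 5.14% as far or further below 0, and of the 2712 genes with a mean of 10 to 20 FPKM 2.25% were as far or further below 0. The soluble parts of the same oxidase differed less. Ncf1 (p47phox) was at 9.45 FPKM with saline and 7.10 FPKM with EA, and Ncf4 (p40phox) at 5.81 and 6.25 FPKM. Rac2, the small GTPase of blood cells that completes the complex, was at 10.2 and 8.39 FPKM, and Cybc1 (listed as BC017643), a chaperone of Cybb, at 13.1 and 11.3 FPKM. Of 11 other genes of DUOX and NADPH oxidase complexes, 8 had a mean of at least 1 FPKM. None of these 8 was past 2-fold, where 2.9% of all genes were, 7 were below 0 and 1 (Ncf4) above, and their median log2 change was -0.19. In bulk tissue, fewer cells of a type and less RNA per cell cannot be told apart. Of 12 phagocyte markers 11 were counted, 4 above 0 and 7 below, with a median log2 change of -0.18 and a summed level over the 12 of 221 FPKM with saline and 179 FPKM with EA. Lyz2 (lysozyme of macrophages) was at 154 and 109 FPKM, and Csf1r, the receptor for the macrophage growth factor, at 23.5 and 23.2 FPKM. Without Lyz2, the other 11 summed to 67.0 and 70.0 FPKM. Among these, Adgre1 (listed as Emr1), Itgax, Cd14, Fcgr1 and Ly86 were lower in group E, with log2 changes from -0.38 to -0.18. Cd68, a lysosomal protein of macrophages, was at 2.05 and 4.03 FPKM, and the integrin Itgam at 10.4 and 12.3 FPKM. S100a8 and S100a9, calcium-binding proteins of neutrophils, were past 2-fold, both higher in group E. They were at 1.60 and 4.94 FPKM and at 0.743 and 2.19 FPKM. S100a9 reached the mean of 1 FPKM only through group E. The part of these cells in the value of Cybb was not tested.

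Nos2 had the largest difference in FPKM of the 10 genes. It was listed at 61.1 FPKM with saline and 34.4 FPKM with EA, 1.78-fold lower, and went from rank 1191 to rank 2305 among all genes listed. The log2 change of -0.83 stayed short of 2-fold, which Nos2 passed at -1.19 when each group was scaled to the same FPKM sum. Of the 12694 genes, 4.64% were at least as far from 0 in either direction and 2.39% as far or further below 0, and of the 2273 genes with a mean of 20 to 50 FPKM 0.528% were as far or further below 0. Nos2 is on chromosome 11 from 78920859 to 78960124. Of 8 enterocyte markers, 0 were past 2-fold, beside 2.9% of all genes counted. Among the 8, 5 lay below 0 and 3 above, with a median log2 change of -0.05. Their log2 changes ran from -0.23 (Fabp2, at 3910 and 3327 FPKM) to 0.36 (Cdh1). Vil1 (villin) was at 980.3 and 949.8 FPKM and Epcam at 558 and 592 FPKM. The ileal enterocyte genes Fabp6 and Slc10a2 had log2 changes of -0.57 and -0.72, and their part in the value of Nos2 was not tested.

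The other nitric oxide synthases were listed far lower than Nos2 and as higher in group E. Nos1, the neuronal enzyme, was at 1.22 FPKM with saline and 1.65 FPKM with EA, and Nos3, the endothelial enzyme, at 0.927 and 2.27 FPKM, a log2 change of 1.29. Nos2 was 65.9 times as abundant as Nos3 in group D and 15.2 times in group E. Nos3 reached the mean of 1 FPKM only through group E. All 6 endothelial markers lay above 0 (all but Kdr when each group was scaled to the same FPKM sum). None of them was past 2-fold, beside 2.9% of all genes counted, and their median log2 change was 0.60. Their summed level was 44.5 FPKM with saline and 64.3 FPKM with EA, and their part in the value of Nos3 was not tested. The genes that make or recycle tetrahydrobiopterin, the cofactor of these enzymes, were closer to equal, with Gch1 at 4.87 and 4.54 FPKM, Pts at 18.98 and 16.5 FPKM, Spr at 23.7 and 28.9 FPKM and Qdpr at 28.2 and 23.4 FPKM. Arg2, the arginase that uses the same arginine, was at 151 FPKM with saline and 163 FPKM with EA, 2.47 times and 4.72 times the level of Nos2. Of the 11 genes counted among nitric oxide synthases and their supply, 1 (Nos3) was past 2-fold, beside 2.9% of all genes counted. Their median log2 change was -0.05.

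Signals known to induce Nos2 or Duox2 were listed in both directions. Nfkb1, a subunit of NF-κB, was at 29.0 FPKM with saline and 12.8 FPKM with EA, and the cytokine Il1b at 2.89 and 1.42 FPKM, log2 changes of -1.18 and -1.02. These were the only 2 of 10 counted genes past 2-fold, beside 2.9% of all genes counted. Irf1, a transcription factor of the interferon response that acts on Nos2, was at 108 FPKM with saline and 69.8 FPKM with EA. Rela, the other main subunit of NF-κB, was at 11.9 and 14.8 FPKM, and Il18 at 9.37 and 13.3 FPKM. The ratio of Irf1 to Nos2 was 1.76 in group D and 2.03 in group E. The cytokines Ifng (0.410 and 0.218 FPKM), Il22 (0.0933 and 0.0621 FPKM), Tnf (0.667 and 0.656 FPKM) and Il6 (0.847 and 0.158 FPKM) had means under 1 FPKM, and Il17a was at 0 in both groups. The list had a median log2 change of -0.14, with 5 genes above 0 and 5 below. Irf1, Rela and Il18 were picked after their values were seen.

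**Figure D4:**
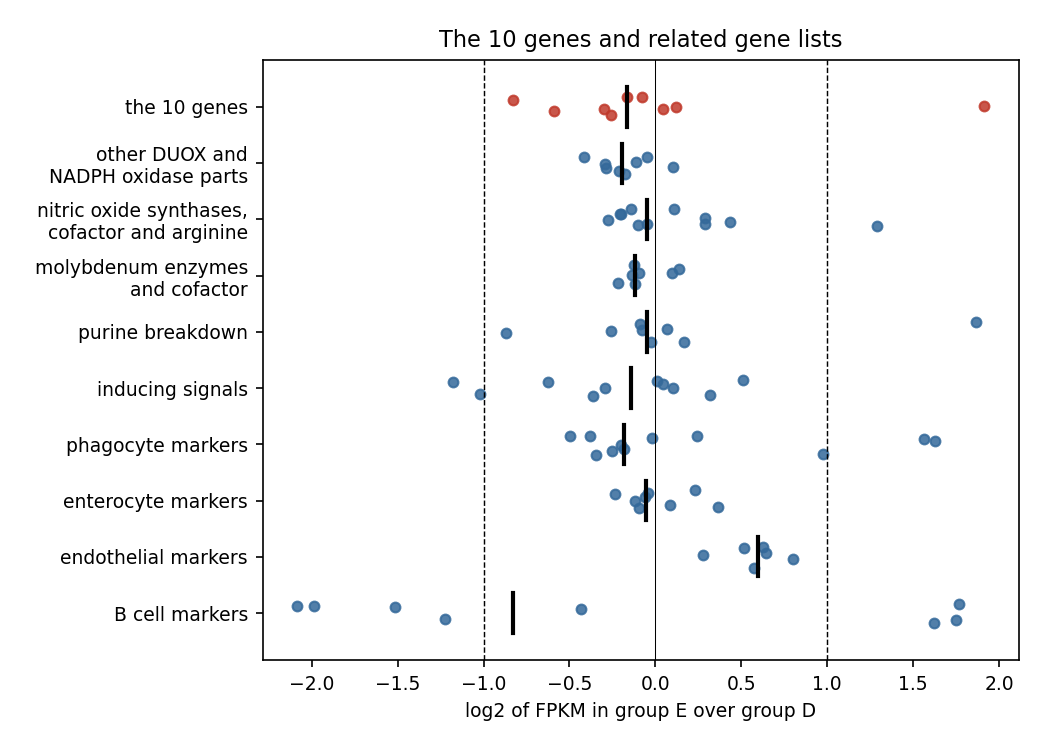
The log2(group E/group D) of FPKM for the 10 genes (red) and for related gene lists and cell type markers (blue), each point being 1 gene with a mean of at least 1 FPKM, with the list's median as a black bar and dashed lines at 2-fold. The medians lie near 0 (-0.19 to -0.05) from the 10 genes down to the enterocyte markers, endothelial markers lie at 0.60, and the 8 B cell markers fall on both sides with a median of -0.83.

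Xdh was listed at 135 FPKM with saline and 109 FPKM with EA, 1.23-fold lower, with a log2 change of -0.30. Among the 697 genes with a mean of at least 100 FPKM, 11.5% were as far or further below 0. Xdh is on chromosome 17 from 73883908 to 73950182. The genes that feed it were mostly near equal. Gda, which turns guanine into xanthine, was at 161 FPKM with saline and 135 FPKM with EA, and Pnp, which frees the purine bases, at 34.3 and 33.7 FPKM. Ada, which turns adenosine into inosine at the head of this route, was past 2-fold, at 7.03 FPKM with saline and 25.6 FPKM with EA, a log2 change of 1.86. Nt5e was the furthest below 0 of the purine breakdown genes counted, at 5.88 and 3.21 FPKM, a log2 change of -0.87. Uox, which degrades uric acid in the mouse liver, was at 0.325 and 0.199 FPKM. The 8 counted genes around purine breakdown include Hprt and Adk, which salvage purines. Of these 8, 1 (Ada) was past 2-fold, beside 2.9% of all genes counted, and the median log2 change was -0.05.

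Aox1 was listed at 0.655 FPKM with saline and 2.46 FPKM with EA, 3.76-fold higher, with a log2 change of 1.91. Of the 12694 genes, 0.607% were at least as far from 0 in either direction and 0.284% as far or further above 0. Differences past 2-fold are more frequent at low levels, and of the 1320 genes with a mean of 1 to 2 FPKM, 9.39% were past 2-fold in either direction, 3.86% were higher in group E by over 2-fold and 0.758% were at or above the change of Aox1. With 1 FPKM added to both values the log2 change was 1.07. Aox1 lies on chromosome 1 from 58029969 to 58106410 on the plus strand, at the head of a row of 4 aldehyde oxidase genes over 349 kb. The other 3, which in mice are known from liver, skin glands and the olfactory lining, were close to 0, with Aox3 at 0.0688 and 0.0261 FPKM, Aox4 at 0.00856 and 0 FPKM and Aox2 (listed as Aox3l1) at 0.0446 and 0.0711 FPKM. Aox1 stayed a minor transcript beside Xdh, which was 206 times as abundant in group D and 44.4 times in group E. Mouse fat also expresses Aox1. Of 8 fat cell markers, 3 (Lep, Retn and Cfd) were at 0 in group D and 5 were counted. All 5 were past 2-fold, 4 as higher (Adipoq, Plin1, Cidec and Car3) and 1 as lower (Fabp4), beside 2.9% of all genes counted. Adipoq, Plin1 and Car3 reached the mean of 1 FPKM only through group E, so that filter fixed their call as higher. The summed level of the 8 was 569 FPKM with saline, of which Fabp4 alone made up 536 FPKM. With EA the sum was 872 FPKM, of which Fabp4 made up 25.6 FPKM. The part of fat cells in the value of Aox1 was not tested.

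The molybdenum cofactor that Xdh and Aox1 need, and the other enzymes that carry it, were close to equal in the groups. Mocs1 and Mocs2, which build the cofactor, were at 23.4 and 21.3 FPKM and at 31.2 and 28.7 FPKM in groups D and E, and Gphn (gephyrin), which inserts the metal, at 11.97 and 13.2 FPKM. Mocos, the sulfurase that activates Xdh and Aox1 in particular, was at 14.7 and 13.8 FPKM. The sulfite oxidase Suox, which also passes electrons from a molybdenum centre, was at 199 FPKM with saline and 172 FPKM with EA. Of the 7 genes counted, 0 were past 2-fold, beside 2.9% of all genes counted. Of these 7, 2 were above 0 and 5 below, and the median log2 change was -0.12. Of 5 heme peroxidases, which use hydrogen peroxide, only Pxdn (peroxidasin of the basement membrane) had a mean of 1 FPKM or more, at 5.30 and 5.57 FPKM. Epx, the enzyme of eosinophils, was at 0.362 and 0.371 FPKM.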

How the data were processed

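Ileum RNA of groups D and E was sequenced with a stranded paired-end protocol. For alignment the authors used TopHat 2.0.12 with a Bowtie 2.2.3 index, and for the comparison they named DESeq 1.18.0. The FPKM values that the authors deposited are 1 per gene and group, in the column layout of Cuffdiff, with no account in the sources of how 2 libraries became 1 value. The table also holds the authors' fold changes, P-values and q-values, and a second table their pathway enrichment. None of these was used. The depth behind an FPKM value is unknown, so no counting interval is given.

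The log2 ratio was computed without a pseudocount, and called past 2-fold for genes above 0 in each group that averaged 1 FPKM or more. A test on counts, such as that named by the authors, could not be run on 1 value per group, and none was planned. The 10 genes and the gene lists (16) were chosen with earlier results of these data known. From each list, genes past 2-fold or otherwise the 2 with the highest mean are named, and others given by role were picked after their values were seen. The 3 lists on other oxidases were added last. Some listed genes are not reported here. Starts were increased by 1, since the file counts from 0. The files' build is not named, but 21481 of 21722 symbols found in GENCODE release M21 (GRCm38) overlap the same gene there. None of the 10 loci overlaps another locus of the table. Python 3.11.15, numpy 2.4.6, pandas 2.3.3 and matplotlib 3.10.9 were used.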

Additional observations from a re-analysis of the deposited data

How the results depend on the processing

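Alternatives were other filters on low FPKM, pseudocounts, fold thresholds and scalings between the groups, all run on the 10 genes. Aox1 stayed past 2-fold in each of those that kept it, with log2 changes from 1.07 to 1.91, but at a minimum mean of 5 FPKM it dropped out and 0 genes were higher. As deposited, the filter of 1 FPKM fixed the call of Aox1 as higher, so its staying past 2-fold behind that filter is no independent check. At 1.5-fold, 2 genes were lower (Nos2 and Cybb). Scaling each group to the same FPKM sum (459683 and 589890) moved every gene by -0.36 on the log2 scale. The median of the 9 genes with a mean of at least 1 FPKM became -0.52, beside -0.16 as deposited, 1 gene (Nos2) was lower by over 2-fold, and the signs of Duox2 and Cyba turned. Of all genes past 2-fold, 14.1% were then higher, beside 54.9% as deposited. These sums lean on small RNAs, Snord99 being at 0 FPKM with saline and 90355 FPKM with EA. With 767 small and ribosomal RNA genes left out of the sums, an alternative chosen after seeing the data, the shift was -0.04, no sign turned and 0 genes were lower by over 2-fold. Nos2 was lower in group E under all alternatives, from -1.19 to -0.81, and Cybb from -0.95 to -0.54. Values that leave out a library could not be had from 1 value per group. No paired analysis was possible because each group has 1 value. FPKM hold no counts, so how far depth limits the low values of Nox4 and Aox1 is unknown.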

Other observations

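Some enzymes outside the 10 genes also give off hydrogen peroxide as they work, and their levels ranged widely. Maoa, the monoamine oxidase that degrades serotonin, was at 268 FPKM with saline and 264 FPKM with EA, and Aoc1 (listed as Abp1), the diamine oxidase that breaks down histamine in the gut, at 240.1 and 192 FPKM. Il4i1, an amino acid oxidase of immune cells, was at 3.22 and 1.45 FPKM, a log2 change of -1.15. It was the only 1 of 10 counted amine, amino acid and polyamine oxidases past 2-fold, beside 2.9% of all genes counted. Aoc3, an amine oxidase of vessels and fat, was at 5.67 and 10.4 FPKM, and Smox, which oxidises spermine, at 8.11 and 14.1 FPKM. None of 4 counted peroxisomal oxidases was past 2-fold, and all 4 lay below 0 (median -0.19). None of 10 counted thiol and lysyl oxidases was past 2-fold (median 0.06), with Qsox1, which forms disulfide bonds in secreted proteins, at 23.0 and 24.4 FPKM.

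Smooth muscle and fibroblast genes, the bulk of the wall beneath the epithelium, had 0 of 8 genes past 2-fold and a median log2 change of 0.20. Of all genes counted, 2.9% were past 2-fold. Of the 8, 6 lay above 0 and 2 below. Myh11, the myosin of smooth muscle, was at 113 FPKM with saline and 140 FPKM with EA. The 2 below were the collagens Col1a1, at 39.8 and 31.0 FPKM, and Col1a2, at 45.2 and 40.3 FPKM.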
